A study of Homo sapiens with 30 samples.

Results

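Cells adjust to low oxygen through hypoxia-inducible factor (HIF), a dimer of an oxygen-labile α subunit, such as HIF1A, and a stable partner. In normal oxygen the prolyl hydroxylases (the EGLN proteins) mark the α subunit and VHL then sends it for degradation, so HIF activity is set largely at the protein level. HIF raises glucose transporters, glycolytic enzymes and regulators of mitochondria, and leukemic lymphoblasts also run glycolysis in normal oxygen. The genes described here are 38 genes of glycolysis and of the hypoxia response, listed by name and read with 1 probe set per gene, the one with the highest mean over all arrays. Of these, 36 have a probe set that carries their symbol alone, among 19775 genes so named on the array, and *CA9* and *SLC16A3* were not analysed here.

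All samples are LOUCY, an established cell line of early T cell precursor acute lymphoblastic leukemia (ETP-ALL). The 30 HG U133 Plus 2.0 arrays form 10 groups of 3. Cells with a doxycycline (dox) inducible MEF2C construct (the MEF2C line) were grown in medium, on OP9-GFP, a mouse stromal line, or with OP9-DL1 cells, which display the Notch ligand DL1, each without and with dox. Cells with an inducible ICN construct (the ICN line; the study uses ICN for the intracellular part of NOTCH1) and cells with both constructs (the MEF2C and ICN line) were grown in medium, again without and with dox. The MEF2C of the MEF2C line is codon optimized, lacks the β domain and carries BFP, and each line is 1 population made by transduction and sorting. No array came from cells without a construct, so dox itself and what it induced cannot be told apart, nor can a construct and the history of its line. Levels are log2 values after robust multichip averaging (RMA), differences are log2 differences with the SE of the fit, and "called" means an adjusted p under 0.05 by limma over all probe sets.

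Of 3 *MEF2C* probe sets, 1 was higher with dox in all MEF2C groups (7.68 without and 8.21 with dox in medium), and the other 2 were lower (10.28 and 9.20 for the brighter one in medium). By the study's figure legend all but a single *MEF2C* probe set lie outside the cloned sequence and read the endogenous gene, and its text does not give their IDs. The Notch target *HES1* stood at 10.19 in the ICN line without dox, against 5.59 in the MEF2C line in medium, so the ICN line differed in this target before induction. *PTPRC* (CD45) had group means from 9.98 to 11.64. The mean level of 20 stromal cell markers was 4.71 to 4.81 on the medium arrays of the MEF2C line without dox, 4.69 to 4.83 on OP9-GFP and 4.64 to 4.71 on OP9-DL1. With dox it was 4.55 to 4.62, 4.51 to 4.59 and 4.54 to 4.58, and its part in the results was not tested. Of these markers *LUM*, *POSTN*, *FAP*, *VCAM1* and *COL3A1* had group means of at most 3.28. The human array reads mouse RNA only in part. In RNA quality 2 arrays stood apart: the 3′ minus 5′ difference of the *GAPDH* control probe sets was 0.79 on OP9-GFP without dox replicate 2 and 0.69 on ICN line with dox replicate 1, against -0.03 to 0.18 on the other 28. Results that rest on either are also given without both, a setting chosen after seeing the data.

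In the RefSeq promoter table (GRCh38.p14) 31 of the 36 genes were found, and *VHL*, *VEGFA*, *BNIP3L*, *NDRG1* and *SLC2A3* were not. The core letters of HIF sites, ACGTG and GCGTG, were searched on both strands in the 250 bases before each start. ACGTG lay in 24 of 52 windows of these genes (46.2%) against 18.5% of all 35116 windows, and GCGTG in 22 (42.3%) against 32.2%. GTGGGAA, the core of sites of the Notch partner RBPJ, lay in 2 windows (3.85% against 5.43%), and the MEF2 site in 0 of 52 (against 2.80%). ACGTG overlaps its own reverse complement in CACGTG, the E-box. Shown are the windows of the 4 genes with the widest range of group means among those in the table, *ADM* at chr11:10304823-10305072 (plus strand), *BHLHE40* at chr3:4979187-4979436 (plus), *PFKFB4* at chr3:48556804-48557053 (minus) and *ANKRD37* at chr4:185396591-185396840 (plus), with ACGTG and GCGTG of either strand in capitals.
ADM: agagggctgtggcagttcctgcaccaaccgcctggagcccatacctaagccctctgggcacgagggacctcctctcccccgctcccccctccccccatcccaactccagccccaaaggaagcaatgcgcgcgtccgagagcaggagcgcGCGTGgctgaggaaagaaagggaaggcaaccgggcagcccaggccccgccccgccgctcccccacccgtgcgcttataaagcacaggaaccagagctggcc
BHLHE40: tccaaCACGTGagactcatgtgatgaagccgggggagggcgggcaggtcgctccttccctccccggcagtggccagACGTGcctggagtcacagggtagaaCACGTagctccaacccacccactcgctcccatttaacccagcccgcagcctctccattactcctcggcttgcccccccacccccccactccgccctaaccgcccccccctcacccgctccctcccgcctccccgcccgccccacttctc
PFKFB4: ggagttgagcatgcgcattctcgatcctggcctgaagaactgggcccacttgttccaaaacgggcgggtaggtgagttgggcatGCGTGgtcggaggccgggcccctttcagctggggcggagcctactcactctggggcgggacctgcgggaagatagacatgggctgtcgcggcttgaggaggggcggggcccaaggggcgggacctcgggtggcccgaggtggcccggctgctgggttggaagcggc
ANKRD37: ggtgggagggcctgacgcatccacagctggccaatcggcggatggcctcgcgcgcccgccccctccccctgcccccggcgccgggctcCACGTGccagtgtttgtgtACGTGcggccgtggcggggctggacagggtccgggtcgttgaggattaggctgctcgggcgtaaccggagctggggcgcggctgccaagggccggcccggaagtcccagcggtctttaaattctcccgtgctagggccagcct
With strands counted apart, *BHLHE40* holds 4 matches to ACGTG and *ANKRD37* 3, while *ADM* and *PFKFB4* hold 1 match each to GCGTG. Neither motif is common to the 4 windows. A match is a description of letters and not of binding.

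The range of group means had a median of 0.52 over the 36 genes and 0.40 over all 19775. The range was over 1 for 8 genes and under 0.5 for 18, and the median SD within groups was 0.09. The median level was 9.07, against 5.71 over all genes, so shares of called genes are also given over the 11331 genes with a mean of at least 5. *EGLN1*, *EGLN3*, *BNIP3* and *P4HA2* were read by dim probe sets with means under 4. Where a gene was called, other probe sets of the same gene gave 155 values, of which 128 had the same sign, 44 were called the same way and 0 the opposite way. The sign was the same in 1 of 4 such values for *KDM3A*, 2 of 7 for *P4HA1*, 2 of 4 for *SLC2A1*, 4 of 8 for *PDK3*, 9 of 14 for *PDK1*, 8 of 11 for *PFKFB4*, 6 of 8 for *ANKRD37*, 22 of 24 for *VEGFA* and 14 of 15 for *PGK1*, and in all values for the other genes with a further probe set.

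The 8 genes with a range over 1 came from every role except the lower steps of glycolysis. *SLC2A3*, the high-affinity glucose transporter GLUT3, had a range of 2.81. *VEGFA*, the angiogenic growth factor, had 1.49, *ADM* (adrenomedullin, a vasodilator peptide) 1.37, *ANKRD37* (a small ankyrin repeat protein) 1.33 and *BHLHE40* (a transcriptional repressor) 1.31. *PFKFB4* and *PFKFB3*, enzymes that set the level of fructose 2,6-bisphosphate, had 1.24 and 1.02, and *VHL* had 1.00 with the largest SD within groups, 0.29. Among the lower steps *GAPDH* had 0.20, *TPI1* 0.25 and *LDHA* 0.39, while *ENO2* (enolase 2) had 0.98.

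Of the 7 genes of the lower steps, 6 had their highest group mean on OP9-DL1 without dox, as did 14 of the 36 genes. *ENO1* (enolase 1) read 12.78, 12.77 and 12.72 there and 12.29, 12.20 and 12.14 in medium with dox, with no overlap. In medium with dox 10 genes had their lowest group mean. Such counts were not made over all genes, so they describe the 36 genes only. *VHL* was highest in the ICN line with dox, at 6.02, 6.50 and 6.41. *ENO2* was likewise highest in the ICN line with dox, at 9.88, 9.66 and 9.81, and lowest on OP9-GFP with dox, at 8.85, 8.85 and 8.72.

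**Figure D1:**
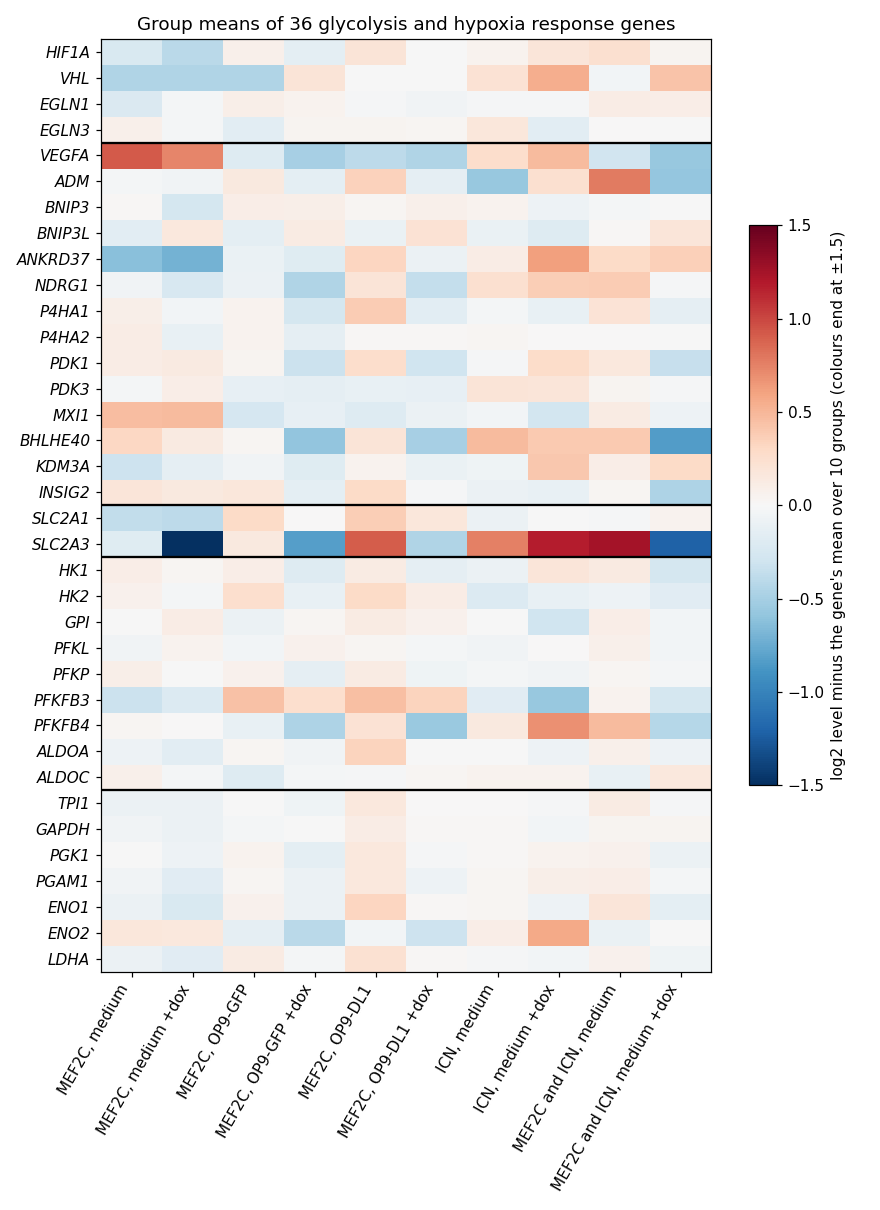
Group means of the 36 measured genes over the 10 groups, each shown as its log2 level minus the mean of that gene over the groups (colours end at ±1.5); lines separate oxygen sensing, hypoxia targets, transport, upper and lower glycolysis. *SLC2A3* spans 4.53 to 7.34, while *GAPDH* stays within 0.20.

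The first comparison asks what induction of MEF2C does to these genes. *SLC2A3* was lower with dox in every culture of the MEF2C line, and it was the member with called falls beyond 1. *BNIP3L*, a receptor for the removal of mitochondria by autophagy, rose in every culture. On both stromas further hypoxia targets and enzymes were called lower, by less than 1.

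*SLC2A3* read 5.61, 6.06 and 6.07 without and 4.27, 4.92 and 4.42 with dox in medium. On OP9-GFP it read 6.16, 6.46 and 6.09 without and 5.24, 5.21 and 5.34 with dox, and on OP9-DL1 6.91, 7.15 and 6.93 without and 5.75, 5.72 and 5.47 with dox. Within each culture every array with dox lay below every array without. The differences were -1.38 ± 0.14 in medium (adjusted p = 8.54e-08), -0.97 ± 0.14 on OP9-GFP (adjusted p = 2.54e-05) and -1.35 ± 0.14 on OP9-DL1 (adjusted p = 1.6e-07), by limma. Its other 2 probe sets had the same sign in all 26 values from comparisons in which it was called, and 23 of these were called. *SLC2A14* is a near-identical copy, and the brighter of 2 probe sets annotated to both genes differed by -0.85, -0.77 and -0.90 in these cultures, so the share of each gene in the signal is uncertain.

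Over 9 arrays with dox against 9 without, 10 of the 36 genes fell and 1 rose, where 7.2% of all genes (3.4% higher, 3.79% lower) and 11.3% of those with a mean of at least 5 were called. The median difference was -0.16 over the 36 and -0.01 over all genes. *SLC2A3* fell (-1.24 ± 0.22, adjusted p = 0.000963, limma), followed by *BHLHE40* (-0.49), *PFKFB4* (-0.39), *NDRG1* (-0.37), a stress-responsive protein, and *P4HA1* (-0.33), a collagen prolyl hydroxylase subunit. The other 5 were *ADM*, *INSIG2*, *HK1*, *PGAM1* and *PFKP*, between -0.26 and -0.16. *BNIP3L* rose by 0.30 ± 0.05 (adjusted p = 0.000158, limma). It was the member with all 9 arrays with dox above the other 9, and *NDRG1* the one with all 9 below. The share of all genes without overlap was not counted. The count of called members was 3, 3 and 4 without replicate 1, 2 or 3 of each group, and 19 with culture as a covariate. Without both arrays of low RNA quality it was 8, and *ADM*, *PFKP* and *PGAM1* were not called.

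Culture by culture, 1 gene rose and 1 fell in medium, where 8.6% of all genes (5.03% higher, 3.58% lower) and 13.7% of those with a mean of at least 5 were called. On OP9-GFP 1 rose and 12 fell, where 7.61% (3.03% higher, 4.58% lower) and 12% were called. On OP9-DL1 1 rose and 16 fell, where 5.9% (2.57% higher, 3.33% lower) and 9.36% were called. The medians were -0.07, -0.17 and -0.18, and over all genes -0.01, -0.03 and 0.01. The difference of the dox effects between OP9-GFP and medium was called for 0 of the 36 by limma and by its trended and robust fit, where 0.491% of all genes (0.101% higher, 0.389% lower) and 0.724% of those with a mean of at least 5 were called. That between OP9-DL1 and OP9-GFP was also called for 0 by both fits, where 0.131% (0.0556% higher, 0.0759% lower) and 0.194% were called. At an unadjusted p under 0.05 these differences had 11 and 5 of the 36, and the share of all genes at that threshold was not counted. A difference in response is thus not shown for any of the 36 between OP9-GFP and medium or between OP9-DL1 and OP9-GFP. The difference of the dox effects between OP9-DL1 and medium was not tested, so a difference between those cultures is left undecided. Without both arrays of low RNA quality 11 were called on OP9-GFP, and *HIF1A*, *VEGFA* and *PDK1* were not.

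**Figure D2:**
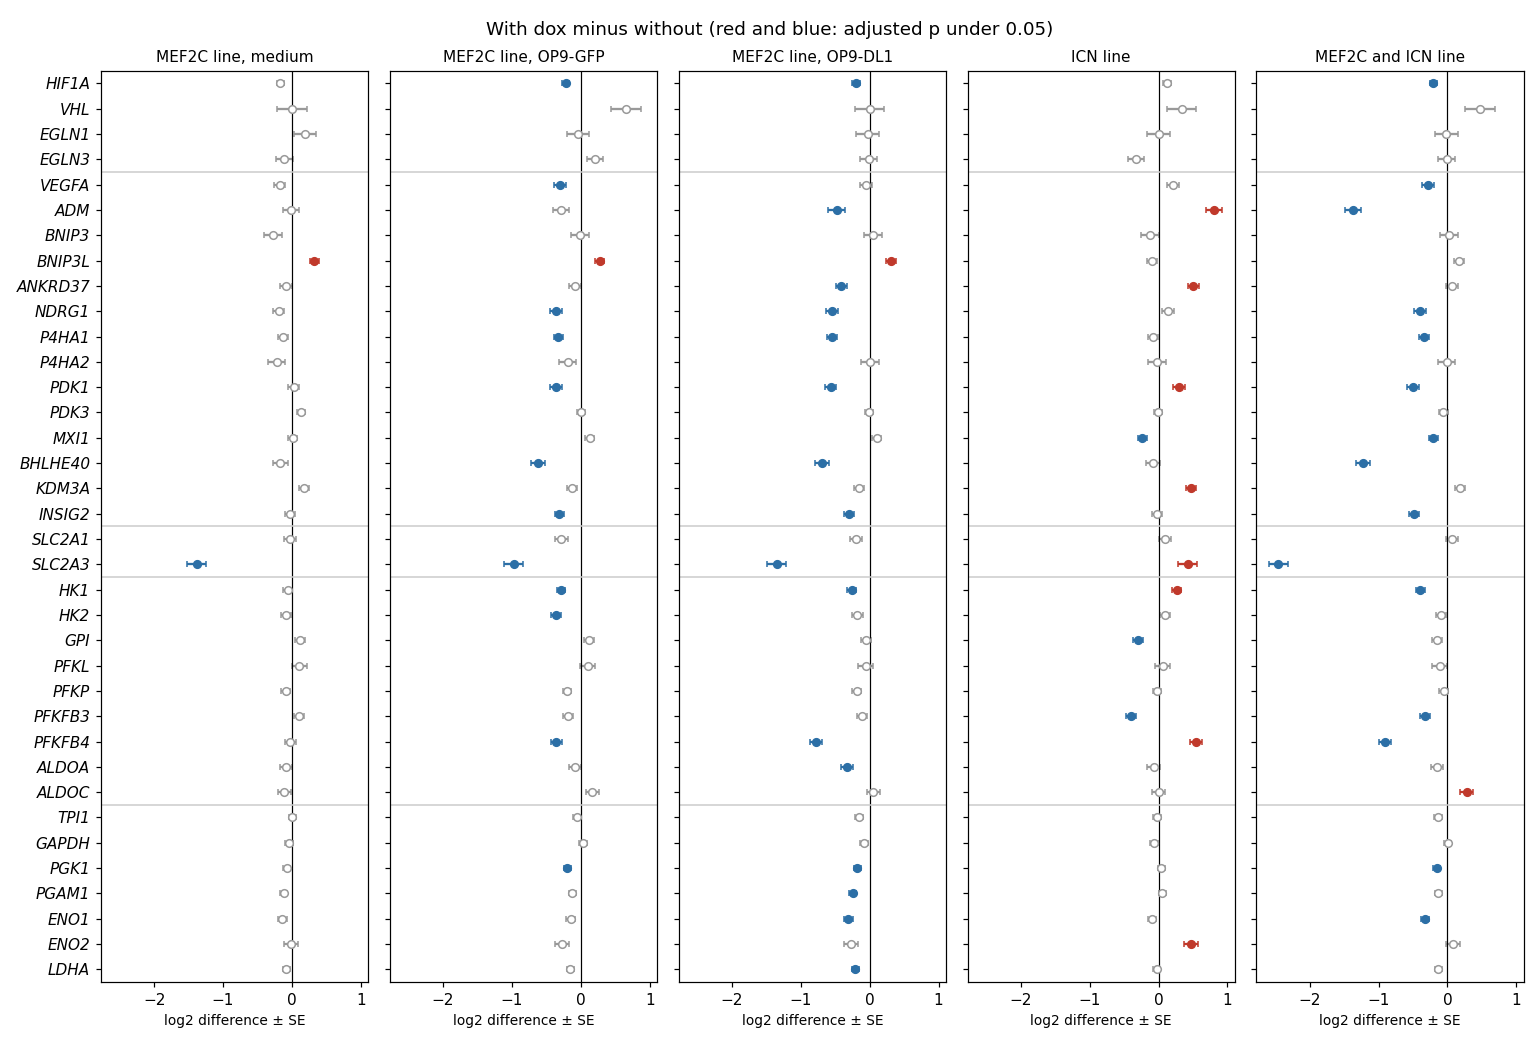
Difference with dox minus without (log2, ± SE) for the 36 genes in each of 5 dox comparisons of 3 arrays against 3; coloured points passed an adjusted p of 0.05 and grey points did not. *SLC2A3* is at -1.38, -0.97, -1.35 and -2.46 where MEF2C was induced and at 0.42 in the ICN line.

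*BHLHE40* read 6.87, 7.09 and 6.75 without and 6.30, 6.29 and 6.24 with dox on OP9-GFP, and 6.92, 7.22 and 7.06 without and 6.52, 6.28 and 6.33 with dox on OP9-DL1. In medium it read 7.01, 7.32 and 7.20 without and 6.80, 7.12 and 7.12 with dox. The groups overlap in medium and not on stroma. The differences were -0.63 ± 0.10 (adjusted p = 0.000181) on OP9-GFP, -0.69 ± 0.10 (adjusted p = 5.46e-05) on OP9-DL1 and -0.17 in medium, which was not called (limma). Its other probe set, with a mean of 4.45, had the same sign in the 7 comparisons in which *BHLHE40* was called and was called in 0.

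*PFKFB4* read 6.51, 6.47 and 6.42 without and 5.74, 5.66 and 5.66 with dox on OP9-DL1, and 6.07, 6.18 and 6.15 without and 5.84, 5.77 and 5.73 with dox on OP9-GFP. In medium it read 6.11, 6.28 and 6.43 without and 6.30, 6.35 and 6.09 with dox, where the groups overlap. The differences on stroma were -0.78 ± 0.08 (adjusted p = 3.38e-07) and -0.35 ± 0.08 (adjusted p = 0.00824, limma), with no overlap.

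Of the other hypoxia targets on OP9-DL1, *PDK1* (-0.57), the kinase that shuts pyruvate dehydrogenase, *NDRG1* (-0.55), *P4HA1* (-0.55), *ADM* (-0.48) and *ANKRD37* (-0.41) fell. On OP9-GFP *PDK1* (-0.36), *NDRG1* (-0.36) and *HK2* (-0.36), the inducible hexokinase, fell. Of the 7 lower steps 4 were called lower on OP9-DL1, *ENO1* (-0.31), *PGAM1* (-0.24), *LDHA* (-0.21) and *PGK1* (-0.18), and 1 on OP9-GFP, *PGK1* (-0.20). *ENO1* was not called when its probe sets were averaged or when the one of highest variance was used. The call of *PGK1* was lost in 10 of 15 alternatives on OP9-DL1 and in 7 of 16 on OP9-GFP. *HIF1A* fell by 0.22 on OP9-GFP and was lower on OP9-DL1 (-0.20). Its call was lost in 5 of 16 alternatives on OP9-GFP and in 8 of 15 on OP9-DL1. *VHL*, *EGLN1* and *EGLN3* were not called in any dox comparison. *BNIP3L* read 11.03, 11.15 and 11.05 without and 11.34, 11.43 and 11.43 with dox in medium, 11.12, 11.24 and 10.92 and 11.35, 11.37 and 11.39 on OP9-GFP, and 11.13, 11.20 and 11.12 and 11.47, 11.46 and 11.44 on OP9-DL1. Its rise was small and without overlap in each.

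The ICN line and the MEF2C and ICN line ask what ICN does alone and together with MEF2C. With dox *SLC2A3*, *ADM*, *PFKFB4*, *PDK1* and *HK1* rose in the ICN line and fell in the MEF2C and ICN line. In the ICN line the calls of *SLC2A3* and *PDK1* were lost in 9 and 6 of 16 alternatives. *ANKRD37*, *ENO2* and *KDM3A*, a histone demethylase, rose in the ICN line. *BHLHE40*, *INSIG2* and *NDRG1* fell in the MEF2C and ICN line.

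*SLC2A3* read 6.87, 6.87 and 6.80 without and 7.36, 7.16 and 7.29 with dox in the ICN line. In the MEF2C and ICN line it read 7.38, 7.22 and 7.43 without and 5.04, 4.87 and 4.74 with dox. Neither pair of groups overlaps. The fall was -2.46 ± 0.14 (adjusted p = 3.13e-13, limma), or 5.49-fold. The rise in the ICN line, 0.42 ± 0.14 (adjusted p = 0.0455), was not called without both arrays of low RNA quality (0.38, adjusted p = 0.116, limma). The other *SLC2A3* probe sets (0.31 and 0.47) and those shared with *SLC2A14* (0.19 and 0.10) were not called in the ICN line either.

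*ADM* read 5.86, 5.87 and 5.76 without and 6.82, 6.41 and 6.69 with dox in the ICN line. With both constructs it read 7.12, 7.16 and 7.26 without and 6.13, 5.61 and 5.69 with dox. Without dox the MEF2C and ICN line was the higher of the lines and with dox the lower, with no overlap. The differences were 0.81 ± 0.12 (adjusted p = 1.53e-05) and -1.37 ± 0.12 (adjusted p = 1.35e-09, limma), and *ADM* has 1 probe set. In the MEF2C line it read 6.29, 6.45 and 6.35 without and 6.28, 6.36 and 6.39 with dox in medium, and 6.70, 6.66 and 6.88 and 6.44, 6.23 and 6.12 on OP9-DL1. The groups overlap in medium and not on OP9-DL1.

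*PFKFB4* read 6.44, 6.29 and 6.43 without and 7.10, 6.79 and 6.90 with dox in the ICN line. With both constructs it read 6.77, 6.70 and 6.70 without and 5.90, 5.78 and 5.77 with dox. The groups do not overlap in either line. The differences were 0.54 ± 0.08 (adjusted p = 3.46e-05) and -0.91 ± 0.08 (adjusted p = 4.58e-09, limma). Its other probe set, with a mean of 4.56, was at -0.02 and -0.07 and was not called.

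*BHLHE40* read 7.37, 7.39 and 7.28 without and 7.33, 7.27 and 7.18 with dox in the ICN line, where the groups overlap. With both constructs it read 7.31, 7.22 and 7.26 without and 6.21, 5.99 and 5.92 with dox, with no overlap. The difference was -1.23 ± 0.10 (adjusted p = 8.46e-10, limma), and -0.09 in the ICN line, which was not called. The other probe set of *BHLHE40* was at -0.54 in the MEF2C and ICN line (adjusted p = 0.0531, limma).

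In the ICN line 8 of the 36 rose and 3 fell, where 15.9% of all genes (6.44% higher, 9.42% lower) and 24.7% of those with a mean of at least 5 were called. The other rises were *ANKRD37* (0.51), *ENO2* (0.48), *KDM3A* (0.47), *PDK1* (0.29) and *HK1* (0.26). For *PDK1* the value ran from 0.05 to 0.34 over the alternatives, and averaging its probe sets lost the call. The falls were *PFKFB3* (-0.40), *GPI* (-0.29), which makes fructose 6-phosphate, and *MXI1* (-0.24), an antagonist of MYC. The count was also 11 without both arrays of low RNA quality, and *SLC2A3* was not called. In the MEF2C and ICN line 1 rose (*ALDOC*, 0.28) and 15 fell, where 16.8% (5.84% higher, 10.9% lower) and 25.9% were called. The call of *ALDOC* was lost in 10 of 15 alternatives. *PDK1* (-0.50) and *INSIG2* (-0.49), a brake on sterol synthesis, followed the genes above. The medians were 0.00 and -0.14, and over all genes -0.03 and 0.02.

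The difference between dox effects was tested directly. Against the ICN line the effect in the MEF2C and ICN line was lower for 11 genes and higher for 0, where 10.1% of all genes (4.06% higher, 6.08% lower) and 15.3% of those with a mean of at least 5 were called. It was largest for *SLC2A3* (-2.88 ± 0.20), *ADM* (-2.18 ± 0.17), *PFKFB4* (-1.45 ± 0.12) and *BHLHE40* (-1.14 ± 0.15). Against the MEF2C line in medium it was lower for 8 and higher for 0, where 10.5% (2.94% higher, 7.53% lower) and 16.1% were called, led by *ADM* (-1.36 ± 0.17), *SLC2A3* (-1.07 ± 0.20), *BHLHE40* (-1.06 ± 0.15) and *PFKFB4* (-0.89 ± 0.12). These 4 genes kept both calls under every alternative run. Averaging the probe sets of *PFKFB4* moved its values to -0.75 and -0.44. Against the ICN line the effect was lower for 12 genes without both arrays of low RNA quality.

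**Figure D3:**
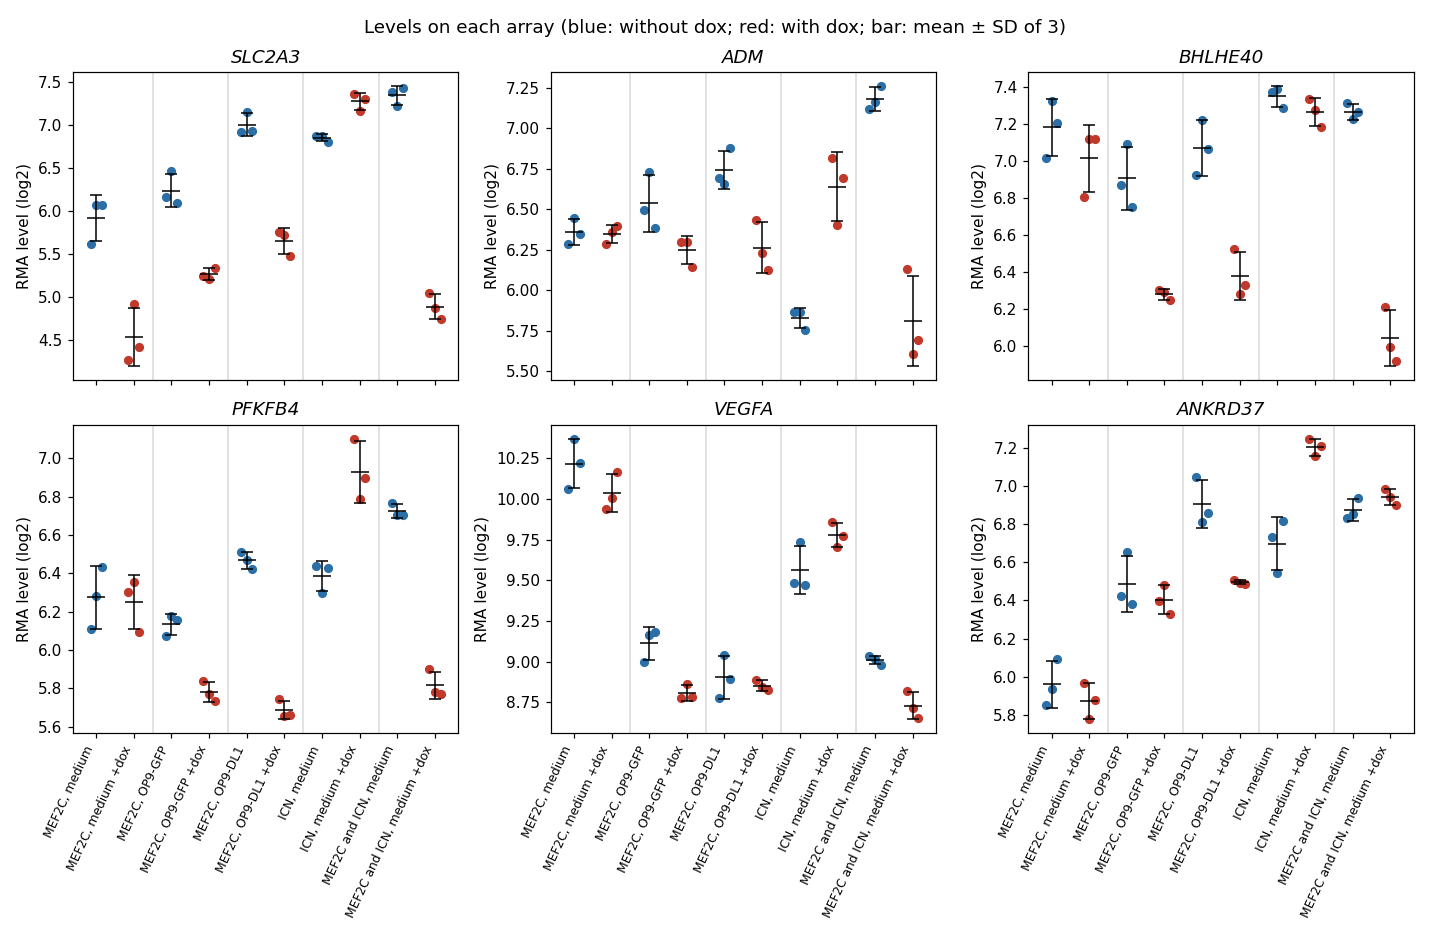
RMA level (log2) on each of the 30 arrays for 6 genes with wide ranges, in the 10 groups; blue points are arrays without dox, red points with dox, and bars are the mean ± SD of 3. *SLC2A3* has a mean of 4.88 in the MEF2C and ICN line with dox and of 7.27 in the ICN line with dox.

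The next comparison sets OP9-GFP stroma against medium in the MEF2C line. *VEGFA* and *MXI1* were lower on stroma without and with dox, and *PFKFB3*, *SLC2A1* (the glucose transporter GLUT1), *ANKRD37*, *HIF1A* and *LDHA* (lactate dehydrogenase A) were higher in both. The call of *LDHA* with dox was lost in 9 of 15 alternatives. With dox, *SLC2A1* was not called when its probe sets were averaged (0.15, adjusted p = 0.15, limma); its other probe set, with a mean of 3.12, was at -0.07 without and -0.10 with dox. *VEGFA* read 10.06, 10.37 and 10.22 in medium without dox and at most 9.18 on the 3 OP9-GFP arrays. With dox it read 9.94, 10.01 and 10.16 in medium and 8.78, 8.86 and 8.78 on OP9-GFP. The cultures do not overlap. The differences were -1.10 ± 0.09 (adjusted p = 1.01e-09) and -1.23 ± 0.09 (adjusted p = 1.54e-10, limma), and its 4 probe sets lay between -1.10 and -0.41 without dox, 3 of them called. On OP9-DL1 *VEGFA* read 8.78, 9.04 and 8.89 without and 8.89, 8.84 and 8.83 with dox, and in the ICN line 9.48, 9.73 and 9.47 without and 9.85, 9.70 and 9.77 with dox. The ICN line thus lay between the medium and the stroma arrays of the MEF2C line.

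Without dox 6 of the 36 rose and 4 fell, where 22.2% of all genes (10.8% higher, 11.5% lower) and 35.3% of those with a mean of at least 5 were called, so the share of the 36, 27.8%, lay between the backgrounds. *PFKFB3* read 7.64, 7.76 and 7.69 in medium and 8.48, 8.54 and 8.35 on OP9-GFP, with no overlap (0.76 ± 0.07, adjusted p = 2.23e-08, limma). *SLC2A1* rose by 0.65, *ANKRD37* by 0.53, *HIF1A* by 0.31 and *KDM3A* by 0.26, and *MXI1* (-0.72), *ENO2* (-0.31) and *ALDOC* (-0.27) were lower. With dox 7 rose and 10 fell, where 20.6% (7.64% higher, 13% lower) and 33% were called. *BHLHE40* (-0.74), *MXI1* (-0.59), *ENO2* (-0.56) and *PFKFB4* (-0.47) followed *VEGFA*, and *SLC2A3* (0.73), *VHL* (0.64), *ANKRD37* (0.53), *PFKFB3* (0.47) and *SLC2A1* (0.40) led the rises. Without both arrays of low RNA quality 11 were called without dox, and *KDM3A* and *ALDOC* were not. *VHL* read 5.65, 4.51 and 5.76 on OP9-GFP without dox, the low value on the array of low RNA quality, at least 5.84 with dox and 5.61, 5.08 and 5.26 in medium with dox.

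OP9-DL1 against OP9-GFP asks what the Notch ligand adds. Without dox 5 of the 36 were higher and 0 lower, where 1.63% of all genes (1.02% higher, 0.612% lower) and 2.45% of those with a mean of at least 5 were called. They were *SLC2A3* (0.76 ± 0.14, adjusted p = 0.00228, limma), *ANKRD37* (0.42), *PFKFB4* (0.33), *P4HA1* (0.32) and *ENO1* (0.26, not called without both arrays of low RNA quality, at 0.18). The arrays of *SLC2A3* given above do not overlap between these groups. The median was 0.12 over the 36 and -0.02 over all genes. The count was 0 when these groups were fitted alone and 2 after centring arrays on their median. It was 3 without OP9-GFP replicate 2, 2 without OP9-DL1 replicate 1, 2 without its replicate 2 and 3 without its replicate 3. With dox 0 were called by limma and 1 by its trended and robust fit, where 1.4% of all genes (0.92% higher, 0.48% lower) and 2.09% of those with a mean of at least 5 were called. At an unadjusted p under 0.05 there were 4 of the 36, and the share of all genes at that threshold was not counted.

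**Figure D4:**
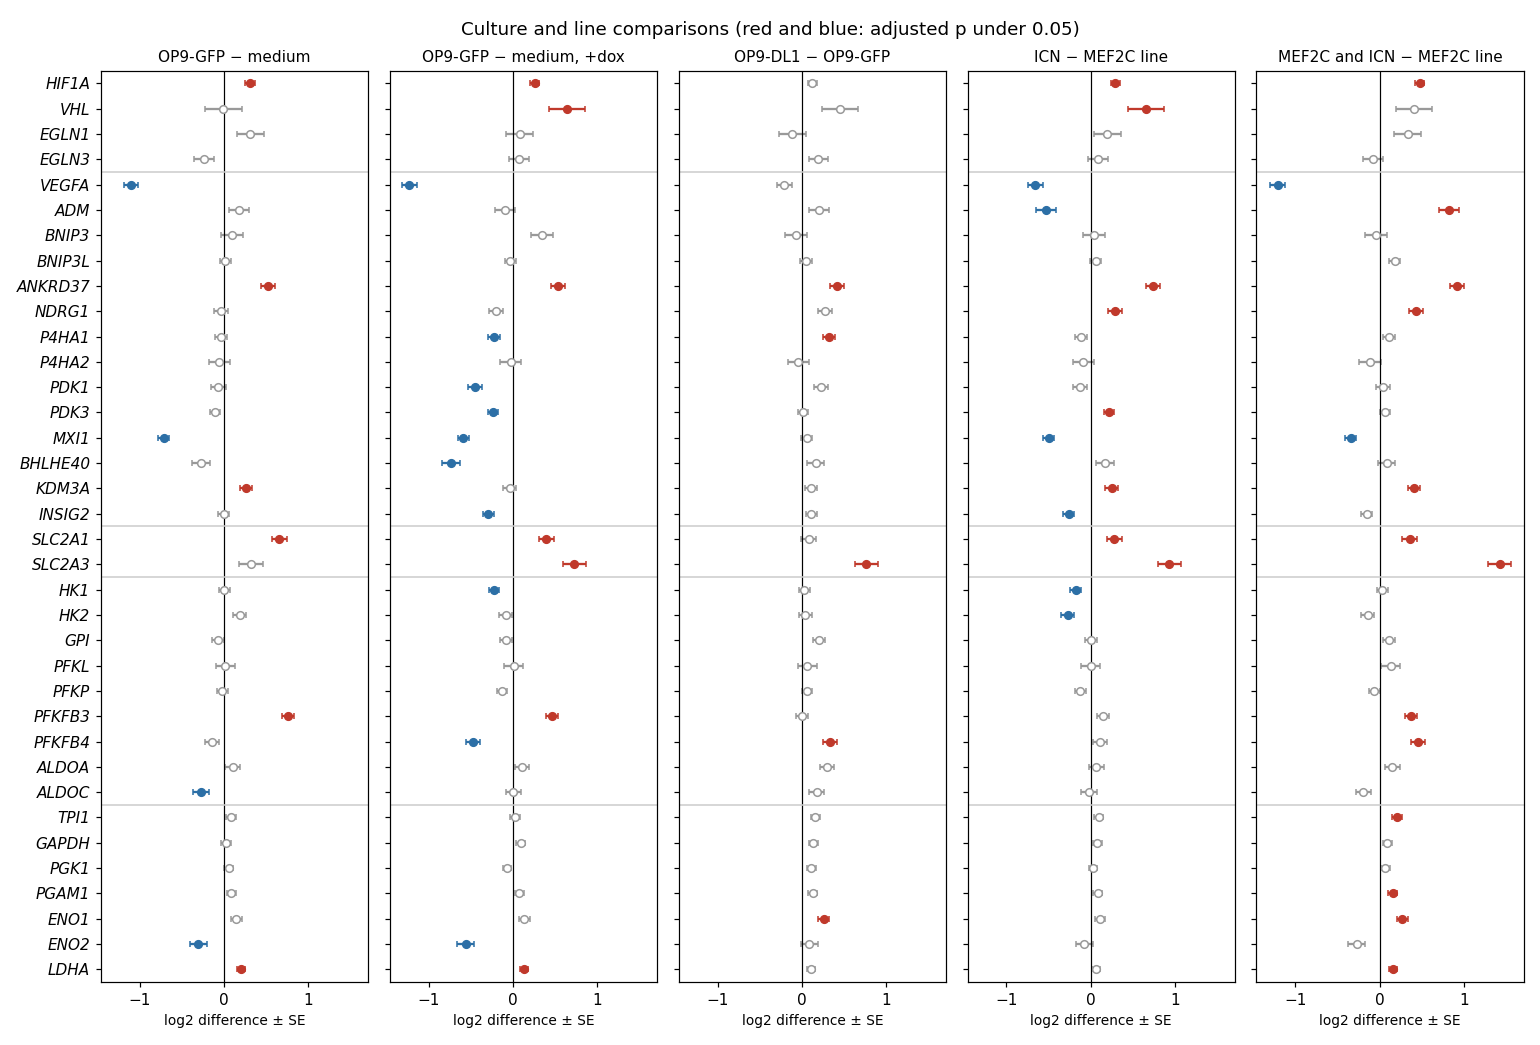
Differences (log2, ± SE) for the 36 genes between cultures of the MEF2C line and between lines, without dox except where marked; coloured points passed an adjusted p of 0.05. *VEGFA* is at -1.10 for OP9-GFP against medium and at -1.21 for the MEF2C and ICN line against the MEF2C line.

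Before induction the lines differed too. Against the MEF2C line in medium, 8 of the 36 were higher and 6 lower in the ICN line, where 25.2% of all genes (12.9% higher, 12.3% lower) and 38% of those with a mean of at least 5 were called. The share of the 36, 38.9%, was thus near that of genes with a mean of at least 5. Higher were *SLC2A3* (0.93), *ANKRD37* (0.74), *VHL* (0.66), *HIF1A* (0.29) and *NDRG1* (0.29), and lower *VEGFA* (-0.65), *ADM* (-0.53), *MXI1* (-0.50), *HK2* (-0.27) and *INSIG2* (-0.26). *ANKRD37* read 5.85, 5.93 and 6.09 in the MEF2C line, 6.73, 6.54 and 6.82 in the ICN line and, with dox, 7.24, 7.15 and 7.21 in the ICN line, with no overlap. The count was 9 of the 36 without replicate 1 of the MEF2C line in medium.

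In the MEF2C and ICN line without dox 13 were higher and 2 lower than in the MEF2C line, where 23.9% (12% higher, 11.9% lower) and 36.9% were called. The share of the 36, 41.7%, was near that of genes with a mean of at least 5. *SLC2A3* was higher (1.43 ± 0.14, adjusted p = 1.97e-08, limma), as were *ANKRD37* (0.91), *ADM* (0.82), *HIF1A* (0.48) and *PFKFB4* (0.45), and *VEGFA*, at 9.03, 9.01 and 8.98, was lower (-1.21 ± 0.09, adjusted p = 8.55e-11, limma). Against the ICN line 6 were higher and 1 lower, where 8.88% (3.73% higher, 5.15% lower) and 13.8% were called. *ADM* was higher (1.35 ± 0.12, adjusted p = 6.57e-09, limma), then *SLC2A3* (0.49), *PFKFB4* (0.34), *P4HA1* (0.23) and *HK1* (0.21), and *VEGFA* was lower (-0.55). That count was 4 after centring arrays and when the groups were fitted alone. It was 2 without replicate 1 of the MEF2C and ICN line, 4 without its replicate 2, 4 without its replicate 3 and 3 without replicate 2 or replicate 3 of the ICN line. The comparisons between lines share their arrays without dox with the dox comparisons.

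Of the HIF pathway outside the 36, 15 genes were measured, and *EPAS1* (HIF-2α, the other main oxygen-labile subunit) moved most. It read 5.95, 6.28 and 6.04 without and 4.83, 5.06 and 4.92 with dox in medium. On OP9-GFP it read 7.70, 7.74 and 7.58 without and 5.62, 5.57 and 5.61 with dox, and on OP9-DL1 8.96, 8.98 and 8.97 without and 7.43, 7.32 and 7.26 with dox. The level was higher on each stroma and lower with dox in each culture, with no overlap. The dox differences were -1.16, -2.07 and -1.63, each ± 0.07 (adjusted p = 1.94e-11, 2.82e-16 and 3.2e-14, limma), and over 9 arrays against 9 it was -1.62 and not called (adjusted p = 0.0588, limma). The difference of dox effects between OP9-GFP and medium was -0.92 (adjusted p = 2.23e-05, limma). In the ICN line *EPAS1* was higher than in the MEF2C line (2.13) and rose with dox (0.65). In the MEF2C and ICN line it read 7.08, 7.10 and 7.11 without and 7.16, 7.14 and 7.07 with dox (0.03, not called), and its dox effect lay above that in the MEF2C line (1.18 ± 0.10, adjusted p = 5.25e-09, limma). *EPAS1* was the 1 gene of these 15 called lower in each culture with dox. It was also higher on OP9-GFP than in medium (1.58), higher on OP9-DL1 than on OP9-GFP without (1.30) and with dox (1.74), and, without dox, higher with both constructs than in the MEF2C line (1.01) and lower than in the ICN line (-1.12). *CITED2*, which competes with HIF for a coactivator, was higher on OP9-GFP without dox (1.37), with arrays at 5.69, 7.19 and 7.95.

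Of 30 other hypoxia targets 28 were measured. In medium dox left 4 higher and 4 lower. The counts were 1 higher with 5 lower for OP9-GFP, 1 with 8 for OP9-DL1, 3 with 3 in the ICN line, and 0 with 8 for both constructs. The shares called were 28.6%, 21.4%, 32.1%, 21.4% and 28.6% of the list, against 8.6%, 7.61%, 5.9%, 15.9% and 16.8% of all genes. Of genes with a mean of at least 5 they were 13.7%, 12%, 9.36%, 24.7% and 25.9%. The shares of the list in the ICN line and with both constructs thus lay near these. *DDIT4*, a stress-induced brake on mTOR, read 10.48, 10.47 and 10.55 without and 9.75, 9.56 and 9.49 with dox in medium. With both constructs it read 10.25, 10.17 and 10.32 without and 8.71, 8.74 and 8.71 with dox. The groups do not overlap (-0.90 and -1.53, adjusted p = 2.41e-08 and 1.76e-13, limma). On OP9-GFP it was lower than in medium without (-1.42) and with dox (-1.08). *LOX*, a collagen cross-linking enzyme, was higher on OP9-GFP than in medium (2.02 without and 1.41 with dox), with arrays at 3.64, 4.49 and 6.18 on OP9-GFP and 2.84, 2.43 and 2.96 in medium without dox. The array highest for *LOX* was also highest for *CITED2*, and the part of stromal RNA was not tested. *NFIL3*, a basic leucine zipper repressor, rose with dox on OP9-GFP (1.02).

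Among other routes of glucose, 18 further glycolysis genes had 0 higher and 2 lower over 9 arrays with dox against 9 (11.1% of the list against 7.2% of all genes), 1 higher and 3 lower with dox with both constructs (22.2% against 16.8%), and 4 higher and 1 lower in the ICN line than in the MEF2C line (27.8% against 25.2%). These shares lay near those of all genes. *TIGAR*, which sends sugar to the pentose phosphate pathway, was higher in the ICN line (2.24) and in the MEF2C and ICN line (1.24) than in the MEF2C line. Of 7 pentose phosphate genes 5 were called lower with dox in the ICN line (71.4% against 15.9% of all genes) and 2 in the MEF2C and ICN line (28.6% against 16.8%), where *H6PD* fell (-1.01). Of genes with a mean of at least 5, 24.7% and 25.9% were called with dox in these 2 lines. Of 21 genes of pyruvate dehydrogenase and the tricarboxylic acid cycle 3 rose and 2 fell in the MEF2C and ICN line (23.8% of the list, between the 16.8% of all genes and the 25.9% of those with a mean of at least 5), among them *MPC1*, a carrier of pyruvate into mitochondria, which rose (1.17). Of 7 genes of MYC and glucose sensing 2 rose and 2 fell with dox in each of the 2 lines with ICN. That is 57.1% of the list in each, against 15.9% and 16.8% of all genes. *ARRDC4*, a glucose-responsive arrestin, rose in the ICN line (1.49) and in the MEF2C and ICN line (2.85), and was higher on OP9-DL1 than on OP9-GFP without (1.23) and with dox (1.41). *TXNIP*, a relative that limits glucose uptake, fell in the MEF2C and ICN line (-1.16), and *MYCN* fell in the ICN line (-1.98).

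Other lists serve as checks. Of 7 Notch targets 3 rose with dox in the ICN line and 4 with both constructs. Of all genes 6.44% and 5.84% were called higher in these lines. *HEY1* rose by 4.96 and by 2.26 there, *DTX1* by 2.31 and by 2.78, and with both constructs *HES1* (1.57) and *HES4* (1.34) rose too. Without dox the ICN line was already above the MEF2C line for *HES1* (4.61), *HEY1* (2.07) and *HES4* (1.78), and the line with both constructs for *HES1* (3.75). On OP9-DL1 *HES1* was higher than on OP9-GFP without (1.89) and with dox (3.19). It was also higher on OP9-GFP than in medium (1.86) and fell there with dox (-1.81).

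Of 8 markers of the leukemic line 1 rose and 6 fell over 9 arrays with dox against 9. Of all genes 3.4% were called higher and 3.79% lower. *MEF2C* itself was among the markers that fell (-1.06, read by its brightest probe set, one of the pair that was lower with dox). With both constructs this *MEF2C* probe set fell (-2.21), while the dimmest had means of 7.58 without and 8.25 with dox. *PTPRC* (-1.66) and *LYL1* (-1.55) fell there, and in the ICN line *BCL2* fell (-1.59). Of 20 stromal markers 2 were higher and 4 lower on OP9-GFP than in medium without dox. Of all genes 10.8% were called higher and 11.5% lower in that comparison, and 35.3% of those with a mean of at least 5 either way. *COL6A3* fell with dox over 9 arrays against 9 (-1.71) and with both constructs (-1.86), and was lower in the ICN line than in the MEF2C line (-1.86). *COL5A2* rose with dox in the ICN line (1.41), *COL5A1* was lower in the ICN line (-1.42) and with both constructs (-1.35) than in the MEF2C line, and *FBN1* was lower on OP9-GFP than in medium with dox (-1.04).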

How the data were processed

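The authors deposited log2 expression values made by RMA, which corrects background, quantile normalizes arrays and summarises probes; affy 1.64.0 and R 3.6.3 are credited to the submitters' processing notes. RMA hides a change in total RNA and shrinks changes of dim probe sets. Array medians lay between 4.76 and 4.84. An array has no read depth, so the number of arrays limits precision. Without 62 control probe sets, 54613 were tested with limma 3.58.1 (R 4.3.3) and adjusted by Benjamini-Hochberg. Dox over 9 against 9 arrays of the MEF2C line was fitted on those 18 arrays without a covariate, the study's design, and all other contrasts in 1 model of 10 groups. Groups came from the labels, which do not say that replicates are separate cultures, so p-values measure the spread between these arrays. Symbols came from the platform annotation, and a probe set with several symbols named no gene. The fits were tested on simulated data.

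The 36 genes and the 9 other lists were chosen with earlier results of these data known. Named are genes called beyond 1, or else up to 5 each way per comparison, and list genes called beyond 1 (at most 3 each way; repeats of a gene between lines and in differences of effects are not all printed); *DDIT4* in medium and a few smaller changes were chosen after their values were seen. Alternatives were a filter on dim probe sets, median centring, quantile normalization, a trended and robust variance, the study's criteria, a replicate block, other samples or covariates in the fit, other probe sets, the methods' t-test (with 3 cultures pooled, Benjamini-Hochberg adjusted, 11 genes called) and leaving out arrays.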

Additional observations from a re-analysis of the deposited data

Results flagged for a closer look

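The effect of dox in the MEF2C and ICN line differed from that in another line, by a test of the difference itself, for these genes. Against the MEF2C line in medium the differences (log2) were -1.36 for *ADM*, -1.07 for *SLC2A3*, -1.06 for *BHLHE40*, -0.89 for *PFKFB4*, -0.52 for *PDK1*, -0.46 for *INSIG2*, -0.43 for *PFKFB3* and -0.33 for *HK1*. Against the ICN line they were -2.88 for *SLC2A3*, -2.18 for *ADM*, -1.45 for *PFKFB4*, -1.14 for *BHLHE40*, -0.79 for *PDK1*, -0.66 for *HK1*, -0.53 for *NDRG1*, -0.49 for *VEGFA*, -0.46 for *INSIG2*, -0.44 for *ANKRD37* and -0.33 for *HIF1A*. On averaging probe sets, *PDK1* was not called against the MEF2C line, nor *VEGFA* and *ANKRD37* against the ICN line. The call of *HK1* against the MEF2C line was lost in 6 of 21 alternatives, and that of *ANKRD37* against the ICN line in 4 of 22.

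In the 72 sets of 9 arrays of the MEF2C line (36 genes, without and with dox), 1 array lay far from the others: *GPI* read 10.84 in medium with dox replicate 1. Chance gives such a value in about 1 of 20 sets.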

How the results depend on the processing

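At the study's criteria, which ask for a difference beyond 0.6, the genes called numbered 1 for dox over 3 cultures, 1 in medium, 3 on OP9-GFP, 3 on OP9-DL1, 1 in the ICN line, 4 in the MEF2C and ICN line, 4 for OP9-GFP against medium without and 4 with dox, 1 for OP9-DL1 against OP9-GFP without dox, 4 for the ICN line and 4 for the MEF2C and ICN line against the MEF2C line, 1 for the MEF2C and ICN line against the ICN line, and 4 and 6 for the differences of dox effects against the MEF2C line and the ICN line. Fitted on the groups compared alone they numbered 1 for dox in medium, 2 on OP9-GFP, 7 in the ICN line, 5 for OP9-GFP against medium without dox, 0 for OP9-DL1 against OP9-GFP without dox, 9 for the ICN line against the MEF2C line and 4 for the MEF2C and ICN line against the ICN line. A trended and robust variance gave 4 for dox in medium, and 8 without and 1 with dox for OP9-DL1 against OP9-GFP. Centring gave 2 for OP9-DL1 against OP9-GFP without dox and 4 for the MEF2C and ICN line against the ICN line. Dox over 3 cultures gave 22 in the 10-group model and 19 with culture as a covariate. The cause of these changes was not tested. Leaving out a whole replicate number, 1 array of every group, gave 3 to 4 for dox over 3 cultures. Leaving out single arrays in turn gave 2 to 3 for dox in medium, 10 to 14 on OP9-GFP, 12 to 14 on OP9-DL1, 8 to 11 in the ICN line and 12 to 14 in the MEF2C and ICN line. It gave 8 to 10 and 13 to 15 for OP9-GFP against medium without and with dox, and 2 to 4 for OP9-DL1 against OP9-GFP without dox. Between lines it gave 9 to 11 and 13 to 16 for the ICN line and the MEF2C and ICN line against the MEF2C line, and 2 to 5 for the MEF2C and ICN line against the ICN line. For the differences of dox effects against the MEF2C line and the ICN line it gave 7 to 9 and 10 to 11.

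With the replicate number as a block, dox over 3 cultures gave 9, and no count moved by over 1.5 times. Deviations of the 135 same-numbered pairs correlated at 0.01 on average (-0.36 to 0.33). Of 3 possible numbers, 15 of 30 arrays were closest to their own. Pairing between particular groups was not tested.

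Of 157 called values of single genes 37 were called under every alternative and 4 changed sign: *KDM3A* (-8e-04) for OP9-GFP against medium without dox and *PDK3* (0.0826) with dox on averaging probe sets, and *PDK3* (0.20) with dox and *PGK1* (0.0198) for dox on OP9-GFP with the probe set of highest variance.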
